A study of Mus musculus with 6 samples.

Results

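Alcohol, aldehyde and retinol dehydrogenases were followed through every probe set of a mouse expression array whose annotation gives exactly 1 gene symbol beginning with Adh, Aldh, Rdh or Dhrs and a digit, or the symbol Adhfe1. The rule took 60 of the 22690 probe sets, and these stand for 40 genes: 5 of the Adh family (Adhfe1 included), 17 of the Aldh family, 11 of the Rdh family and 7 of the Dhrs family. The samples were livers of 6 male KK/H1J mice, an obese strain that turns diabetic through the joint action of many genes. All were 12 to 14 weeks old, weighed about 35 g, were fed freely and housed singly. In 3 mice (numbers 23, 28 and 36) an adenovirus given through the tail vein carried a form of PFK-2/FBPase-2, the liver enzyme that makes and breaks down fructose 2,6-bisphosphate, without its bisphosphatase activity (BPD). The other 3 mice (numbers 22, 29 and 31) received, by the same route and at the same stated dose, an adenovirus carrying green fluorescent protein (GFP). Every liver had therefore met an adenovirus for 7 days before it was taken, and no uninjected mouse was analysed here. The labels name neither the promoter that drove each transgene nor the cells that took up the virus.

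Alcohol dehydrogenases (Adh) oxidise ethanol and other alcohols, retinol among them, to aldehydes, and aldehyde dehydrogenases (Aldh) oxidise aldehydes to acids. In the liver this pair of steps clears ethanol by way of acetaldehyde, while separate Aldh enzymes finish the breakdown of proline, lysine, valine and tryptophan or act on folate. Retinol dehydrogenases (Rdh) and several members of the Dhrs family, short-chain enzymes, move retinol and retinal to and fro, and Aldh1a enzymes turn retinal into retinoic acid, the ligand of the retinoic acid receptors.

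The deposited value of a probe set is a signal on a linear scale, with 1 array per liver. Differences are given as BPD minus GFP on the log2 scale, after a small constant was added and the array medians were aligned. Each is given with a standard error from limma, which pools information on spread across probe sets, with 3 livers a group. A gene is said to have risen or fallen where limma's test, adjusted by Benjamini and Hochberg over the 13575 probe sets bright enough to test, gave an adjusted p under 0.05. Of the 40 genes, 32 had a probe set that passed the filter on low values, and the brightest of these probe sets stands for its gene. The median signal of an array was 174, 197 and 176 in BPD livers, against 135, 157 and 143 in GFP livers, although the trimmed means were equal. A change of scale therefore shifts all differences: the median over the 8151 genes tested was -0.22 with array medians aligned, 0.08 on the deposited scale, -0.06 after quantile normalization and -0.11 with the medians of the tested probe sets aligned. Each call below was accordingly repeated under these 4 scalings.

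Most of the measured dehydrogenases fell in BPD livers, and 1 rose. With array medians aligned, 22 of the 32 genes fell and 1 rose, against a background of 22.2% of all tested genes that fell and 8.75% that rose. On the deposited scale 17 fell (background 11.1%) and 2 rose (17.2%), after quantile normalization 14 fell (12.9%) and 1 rose (12.7%), and with the medians of the tested probe sets aligned 22 fell (17.7%) and 1 rose (10.8%). Counted by probe set, 30 of the 41 tested fell (background 20.3%) and 1 rose (8.29%) with array medians aligned. Under all 4 scalings 14 genes fell (background 9.25%) and 1 rose (background 8.37%). The 14 were Adh5, Adhfe1, Aldh1l1, Aldh2, Aldh4a1, Aldh6a1, Aldh7a1, Aldh8a1, Dhrs3, Dhrs7b, Rdh7, Rdh11, Rdh16 and Rdh16f2, and the 1 that rose was Aldh3a2. The probe sets that stand for 8 of the 32 genes (Adh5, Adhfe1, Aldh1l1, Aldh9a1, Dhrs3, Dhrs4, Rdh9 and Rdh10) can match several transcripts by their array names, 4 of the 14 among them. Of the other genes, 9 were called under 1 to 3 of the scalings and 8 under none. Without any test, the deposited signals of all BPD livers lay below those of all GFP livers for 20 of the 32 genes (18.2% of all tested genes) and above them for 2 (27.5%).

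**Figure D1:**
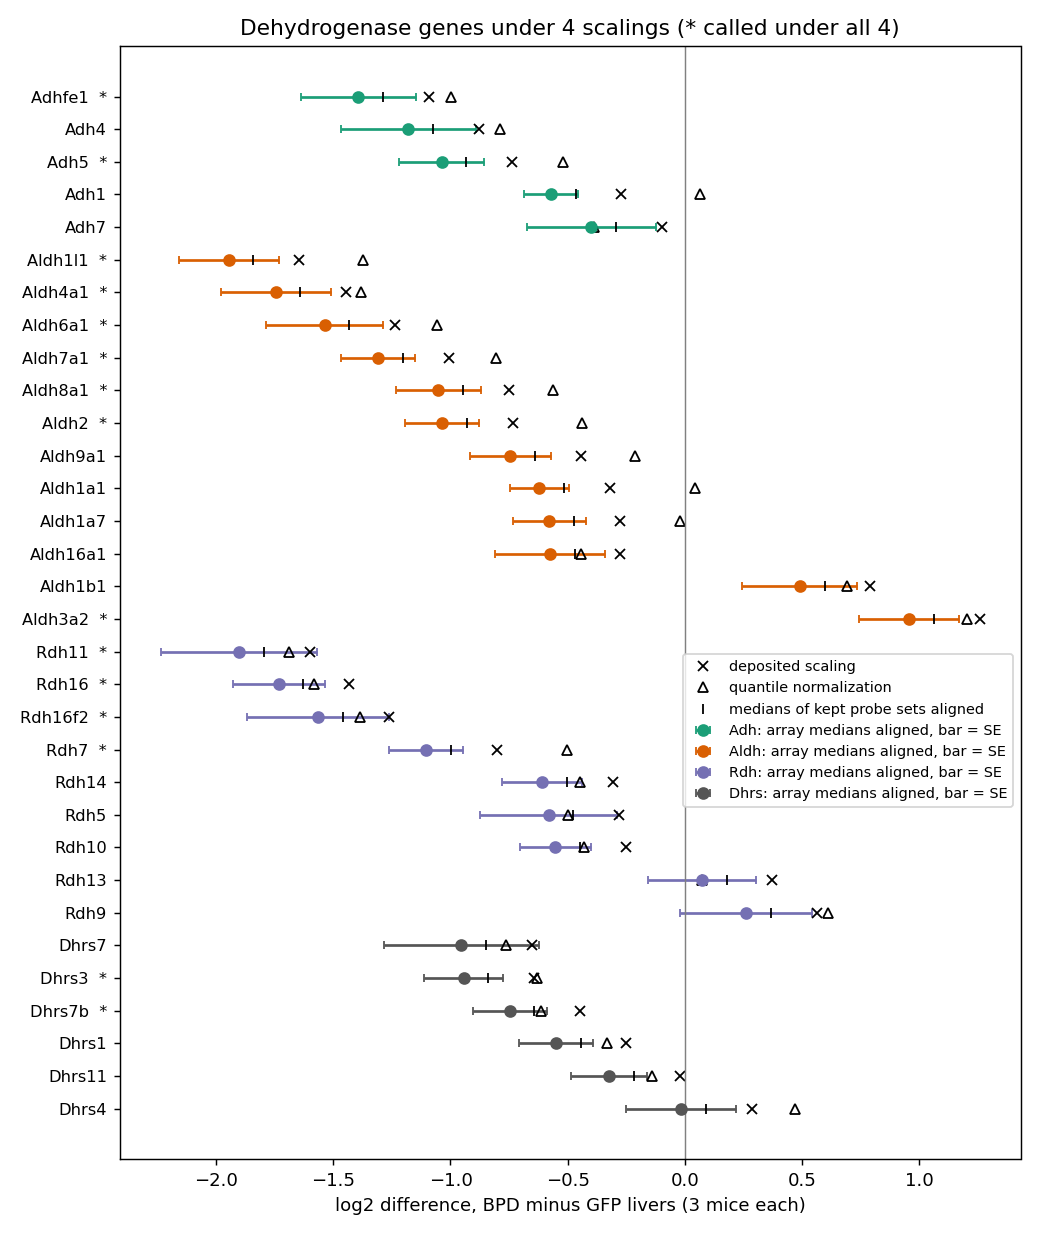
Log2 difference, BPD minus GFP livers, of the 32 measured genes under 4 scalings; circles with bars give the difference and its standard error with array medians aligned (3 mice a group), crosses the deposited scale, triangles quantile normalization and ticks the medians of tested probe sets aligned, and an asterisk marks genes called under all 4. Only Aldh3a2 of the asterisked genes lies right of 0, while Adh1 and Aldh1a1 lie left of 0 except after quantile normalization (0.06 and 0.04) and Dhrs4 changes sign between scalings.

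The brightness of the members matters for the reading of these counts, since quantile normalization moved the brightest genes more than the median gene. Of the 32 genes, 12 belonged to the brightest 10% of tested genes, and 11 of those 12 fell with array medians aligned, where 57.8% of all genes of that brightness fell. Under all 4 scalings 7 of the 12 fell, against 24.7%. The median difference of the brightest 10% was -0.58 with array medians aligned and -0.03 after quantile normalization.

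The 4 families had medians below the median of all genes. With array medians aligned the median difference was -1.04 for 5 Adh genes, -0.89 for 12 Aldh genes, -0.61 for 9 Rdh genes and -0.65 for 6 Dhrs genes, against -0.22 for all tested genes. After quantile normalization the medians were -0.52, -0.44, -0.50 and -0.47 in that order of families, against -0.06 for all genes. In counts, 4 of 5 Adh, 9 of 12 Aldh, 6 of 9 Rdh and 3 of 6 Dhrs genes fell with array medians aligned, against 22.2% of all tested genes and 57.8% of the brightest 10%. The families lay below all genes under either scaling, whereas their order among themselves changed with the scaling.

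Each liver was also described by the median deviation of a family's genes from their own means over the 6 livers, relative to the same over all genes. For the Adh family this was -0.56, -0.55 and -0.03 in BPD livers 23, 28 and 36, against 0.52, 0.29 and 0.11 in GFP livers 22, 29 and 31. The Aldh family had -0.46, -0.53 and -0.17 in the BPD livers, against 0.45, 0.25 and 0.42 in the GFP livers. For the Rdh family the BPD livers had -0.28, -0.29 and -0.39, against 0.39, 0.13 and 0.37 in the GFP livers. No BPD liver overlapped the GFP livers in any of these families. BPD liver 36 lay nearest to the GFP livers in the Adh and Aldh families but farthest from them in the Rdh family. The same liver had the lowest sums of macrophage, neutrophil and stellate cell markers in its group. These were 15470, 1644 and 5857, against at least 29332, 6572 and 15220 in the other BPD livers. Its sum of hepatocyte markers was also the lowest of the group (131283, against 135420 and 147119). The part of these markers in the family values was not tested. The Dhrs family had the smallest distance between group means, with -0.08, -0.31 and -0.11 in BPD livers, against 0.22, 0.24 and 0.16 in GFP livers.

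**Figure D2:**
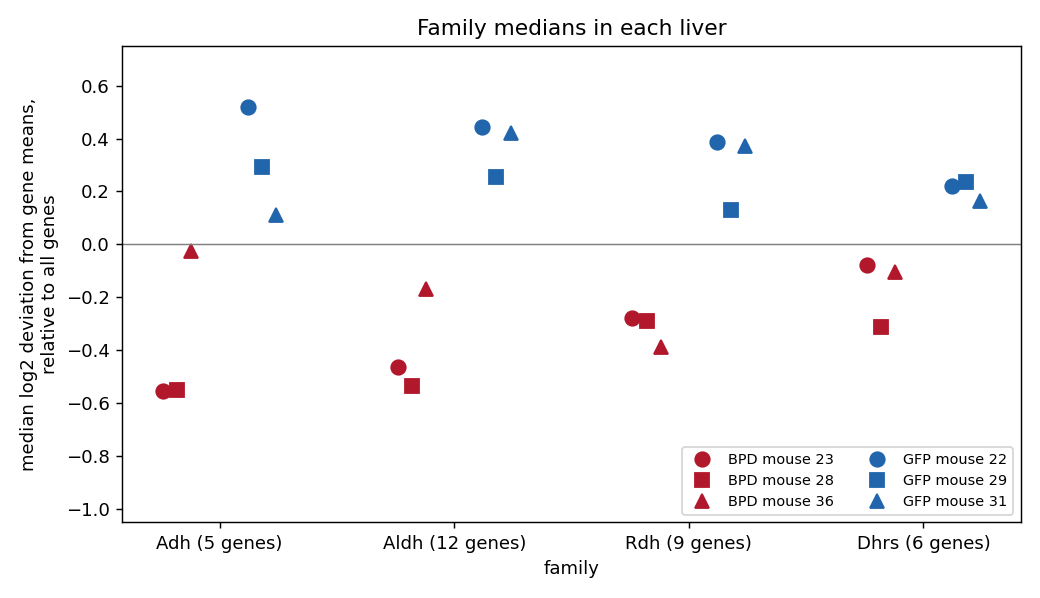
Median log2 deviation of each family's measured genes from their means over all livers, relative to all tested genes, 1 point per liver (BPD red, GFP blue). All BPD points lie below all GFP points in every family, and BPD liver 36 is the closest to the GFP livers in the Adh family (-0.03, against 0.11 in GFP liver 31).

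In the Adh family, Adh5 and Adhfe1 fell under all 4 scalings, while calls for Adh1 and Adh4 depended on the scaling. Overlap of groups is judged on the deposited signals unless another scale is named. All signals below are given for BPD livers 23, 28 and 36 and then for GFP livers 22, 29 and 31. Adh1, the class of alcohol dehydrogenase that carries most ethanol oxidation in mouse liver, had signals of 15622, 15580 and 13992 in BPD livers, against 17178, 20217 and 17203 in GFP livers. The groups did not overlap, and its difference was -0.57 ± 0.12 (adjusted p = 0.0069) with array medians aligned, -0.27 (adjusted p = 0.086) on the deposited scale and 0.06 (adjusted p = 0.58) after quantile normalization. Its fall and its direction were therefore a matter of scaling. Adh5, which oxidises the adduct of formaldehyde and glutathione and also reduces S-nitrosoglutathione, had 4419, 3713 and 4474 in BPD livers, against 7991, 6542 and 6531 in GFP livers. Every BPD value lay well under every GFP value, and Adh5 fell by 1.04 ± 0.18 (adjusted p = 0.0036) with array medians aligned (-0.52 after quantile normalization).

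Adhfe1, an iron-dependent enzyme of mitochondria that oxidises gamma-hydroxybutyrate, had signals of 1416, 1373 and 2554 in BPD livers, against 3412, 3997 and 3584 in GFP livers. BPD liver 36 stood highest of its group but still below all GFP livers. Adhfe1 fell by 1.39 ± 0.25 (adjusted p = 0.0039), and its second probe set fell by 1.23 ± 0.22. Adh4, a class that oxidises long-chain alcohols and retinol, read 1289, 1695 and 2359 in BPD livers, against 4234, 3504 and 2190 in GFP livers. Here the groups overlapped, since BPD liver 36 exceeded GFP liver 31, though not once array medians were aligned. Adh4 fell by 1.18 ± 0.29 (adjusted p = 0.015), a call that was lost after quantile normalization (adjusted p = 0.071) and in the fits that left out BPD 23, BPD 28 or GFP 22 (highest adjusted p = 0.056). Adh7, the class of stomach and other epithelia, was dim at 109, 144 and 250 in BPD livers, against 172, 166 and 175 in GFP livers. It did not pass the test (-0.40 ± 0.27, adjusted p = 0.30), although without BPD mouse 36 the difference was -0.72 (adjusted p = 0.033).

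Among aldehyde dehydrogenases of general metabolism, Aldh3a2 went against the rest. This gene encodes the fatty aldehyde dehydrogenase of membranes, which oxidises long-chain aldehydes from lipids to fatty acids. Its signals were 1895, 1385 and 1369 in BPD livers, against 741, 590 and 574 in GFP livers. The lowest BPD liver was well above the highest GFP liver, and Aldh3a2 rose by 0.96 ± 0.21 (adjusted p = 0.011) with array medians aligned, 1.26 on the deposited scale and 1.20 after quantile normalization. Leaving out each mouse in turn gave differences between 0.77 and 1.11, all past the threshold. Its neighbour in the RefSeq gene order, Aldh3a1, an enzyme of the cornea, had no probe set bright enough to test.

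The 250 bases before the RefSeq start of Aldh3a2 (GRCm38.p6, chr11:61267187-61267436, minus strand) are shown because it is the member that rose. They hold a CACGTG (an E-box, also the core of the site bound by the carbohydrate response factor ChREBP when it occurs in pairs) and a CCAAT, both in capitals.
Aldh3a2: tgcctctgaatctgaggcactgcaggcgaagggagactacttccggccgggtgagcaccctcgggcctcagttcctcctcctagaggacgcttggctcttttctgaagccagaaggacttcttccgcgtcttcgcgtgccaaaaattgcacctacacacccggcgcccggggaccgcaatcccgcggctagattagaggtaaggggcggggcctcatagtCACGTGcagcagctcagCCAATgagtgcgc
CACGTG occurred in 6.0% of the 32851 windows of this length before RefSeq starts and in 4 of the 40 windows that belong to dehydrogenase genes. CCAAT, searched like CACGTG on both strands, occurred in 33.8% of all windows and in 22 of those 40. Besides Aldh3a2, CACGTG was found before Rdh11, Rdh9 and Aldh18a1. A window of Rdh11, which fell under all 4 scalings, holds 2 matches, and Rdh9 did not pass under any scaling. A match describes letters only, not binding.

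Aldh2, the mitochondrial enzyme that oxidises most acetaldehyde, had signals of 6820, 6480 and 8182 in BPD livers, against 12143, 11324 and 12146 in GFP livers. No BPD liver came near the GFP range. Aldh2 fell by 1.04 ± 0.16 (adjusted p = 0.0021), a 2.05-fold difference (after quantile normalization -0.44, adjusted p = 0.028). Its other probe sets gave -1.001 ± 0.25 and -1.07 ± 0.34, the last called only with array medians aligned. Within each array, the log2 ratio of Aldh3a2 to Aldh2 was -1.85, -2.23 and -2.58 in BPD livers, against -4.03, -4.26 and -4.40 in GFP livers. The mean shift of 2.02 does not depend on how arrays are scaled to each other by a single factor. The pair joins the member that rose with 1 that fell, so the shift restates those calls.

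Aldh1b1, another mitochondrial enzyme that accepts acetaldehyde, read 1100, 1051 and 736 in BPD livers, against 702, 432 and 519 in GFP livers. The groups did not overlap, but did once array medians were aligned, where the difference was 0.49 ± 0.24 (adjusted p = 0.16), and it passed the test only on the deposited scale (0.79, adjusted p = 0.032). Aldh9a1, which oxidises aminoaldehydes on the way to GABA and carnitine, had 5109, 4541 and 5826 in BPD livers, against 7608, 6945 and 6449 in GFP livers. Aldh9a1 fell by 0.74 ± 0.17 (adjusted p = 0.012), but not after quantile normalization (-0.21, adjusted p = 0.19). Its second probe set fell by 0.96 ± 0.20 and was called under all 4 scalings. For Aldh16a1 the difference was -0.58 ± 0.24 (adjusted p = 0.094), with overlapping groups.

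The differences of the cytosolic Aldh1a enzymes of the liver depended on the scaling. Aldh1a1, which makes retinoic acid from retinal, had signals of 11944, 11860 and 12343 in BPD livers, against 15325, 15767 and 14067 in GFP livers. Within the BPD group the values were close together and all lay below the GFP group. Its difference was -0.62 ± 0.12 (adjusted p = 0.0066) with array medians aligned and -0.32 (adjusted p = 0.032) on the deposited scale, but 0.04 (adjusted p = 0.74) after quantile normalization. Aldh1a7, a close rodent relative of Aldh1a1 and its neighbour in the gene order, had 6071, 6888 and 8445 in BPD livers, against 8476, 8878 and 8349 in GFP livers. The groups overlapped through BPD liver 36 and GFP liver 31, though not once array medians were aligned. Aldh1a7 fell by 0.58 ± 0.16 (adjusted p = 0.023), and not on the deposited scale (-0.28, adjusted p = 0.16), after quantile normalization (-0.02, adjusted p = 0.93), or in the fits that left out BPD 23, BPD 28, GFP 22 or GFP 31 (highest adjusted p = 0.085). The log2 ratio of Aldh1a7 to Aldh1a1 within an array was -0.98, -0.78 and -0.55 in BPD livers, against -0.85, -0.83 and -0.75 in GFP livers, so the groups overlapped. The retinoic acid makers Aldh1a2 and Aldh1a3 were too dim to test.

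**Figure D3:**
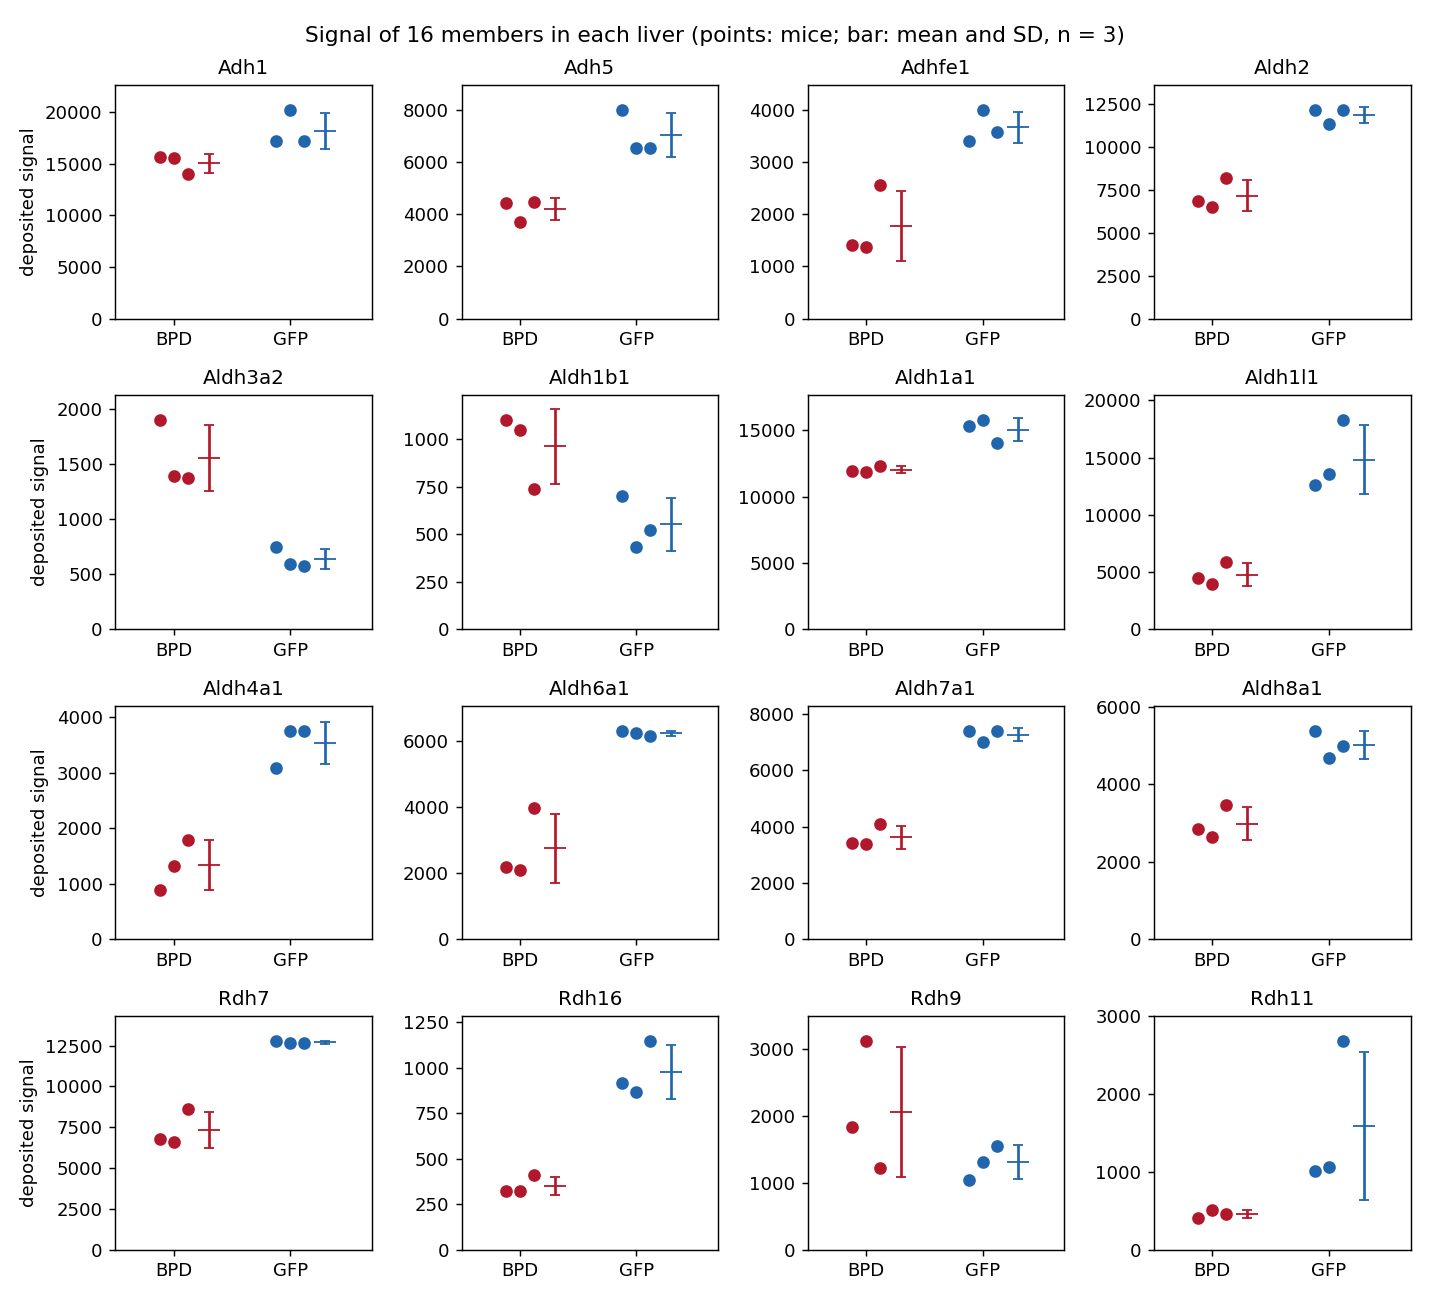
Deposited signal of 16 dehydrogenase genes in each liver (points), with the mean and SD of 3 mice beside them, BPD left and GFP right; each panel has its own axis from 0. Aldh3a2 and Aldh1b1 lie higher in all BPD livers, Rdh9 overlaps between groups, and the other 13 lie lower in all BPD livers on the deposited scale, although Adh1 (0.06) and Aldh1a1 (0.04) show no fall after quantile normalization.

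The 4 largest falls among aldehyde dehydrogenases were in enzymes of amino acid and folate breakdown. All 4 measured members that act on amino acids and the 1 that acts on folate fell under all 4 scalings, and the median difference of the 4 was -1.42. The shares that fell under all 4 scalings were 9.25% of all tested genes and 24.7% of the brightest 10%. Aldh1l1, the cytosolic enzyme that releases carbon dioxide from formyltetrahydrofolate, had signals of 4433, 3900 and 5852 in BPD livers, against 12628, 13538 and 18253 in GFP livers. The highest BPD liver reached less than the lowest GFP liver by a wide margin. Aldh1l1 fell by 1.95 ± 0.21 (adjusted p = 0.00061), a 3.85-fold difference (-1.37 after quantile normalization). Its second probe set fell by 1.38 ± 0.17.

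Aldh4a1, which oxidises the semialdehyde made from proline to glutamate, had 895, 1313 and 1797 in BPD livers, against 3095, 3755 and 3761 in GFP livers. It fell by 1.75 ± 0.23 (adjusted p = 0.0012). Aldh6a1, the methylmalonate semialdehyde dehydrogenase of valine and thymine breakdown, had 2202, 2104 and 3966 in BPD livers, against 6313, 6240 and 6161 in GFP livers. BPD liver 36 was the highest of its group in both genes and stayed below all GFP livers. Aldh6a1 fell by 1.54 ± 0.25 (adjusted p = 0.0027). Aldh7a1, which acts on the semialdehyde of lysine breakdown, read 3400, 3369 and 4075 in BPD livers, against 7400, 6996 and 7387 in GFP livers. Each group was tight, and Aldh7a1 fell by 1.31 ± 0.16 (adjusted p = 0.00086). A second, less steady probe set of Aldh7a1 gave -0.96 ± 0.29 (adjusted p = 0.034), called under 2 scalings. Aldh8a1, of the kynurenine path of tryptophan, had 2845, 2648 and 3479 in BPD livers, against 5388, 4673 and 4998 in GFP livers. These groups were also apart, and Aldh8a1 fell by 1.05 ± 0.18 (adjusted p = 0.0035). Aldh18a1, which works in the opposite direction and starts proline synthesis, was represented only by probe sets too dim for the main test. In a fit without the filter (5.27% of all probe sets rose), 1 of its 5 probe sets rose, with signals of 154, 186 and 94.0 in BPD livers, against 33.4, 49.3 and 37.4 in GFP livers, while its brightest probe set did not pass.

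Most enzymes listed as partners of these aldehyde dehydrogenases also fell. Of 28 such partners listed (enzymes of proline, lysine, valine, pyrimidine, tryptophan, carnitine and folate pathways), 23 were measured; 21 fell with array medians aligned, 18 under all 4 scalings, and none rose. The shares of all tested genes that fell were 22.2% and 9.25%, and those of the brightest 10% were 57.8% and 24.7%. The median of the 23 was -1.33, against -0.22 for all genes. Prodh, which makes the substrate of Aldh4a1 from proline, had signals of 389, 320 and 601 in BPD livers, against 3922, 3613 and 4722 in GFP livers. Prodh fell by 3.52 ± 0.26 (adjusted p = 0.00014). Oat, which feeds the same intermediate from ornithine, had 1771, 3474 and 2174 in BPD livers, against 13069, 11696 and 14940 in GFP livers. Oat fell by 2.76 ± 0.22 (adjusted p = 0.00018). No BPD liver came near the GFP range for either gene. Haao, an enzyme of the kynurenine path, fell by 2.18 ± 0.20 (adjusted p = 0.00037). Upb1, the last enzyme before the aminotransferase in pyrimidine breakdown, fell by 1.73 ± 0.17 (adjusted p = 0.00044). Hibadh and Aass, chosen after their values were seen, act just before Aldh6a1 and Aldh7a1. Hibadh fell by 1.53 ± 0.20 (adjusted p = 0.0011) and Aass fell by 1.62 ± 0.22 (adjusted p = 0.0012).

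**Figure D4:**
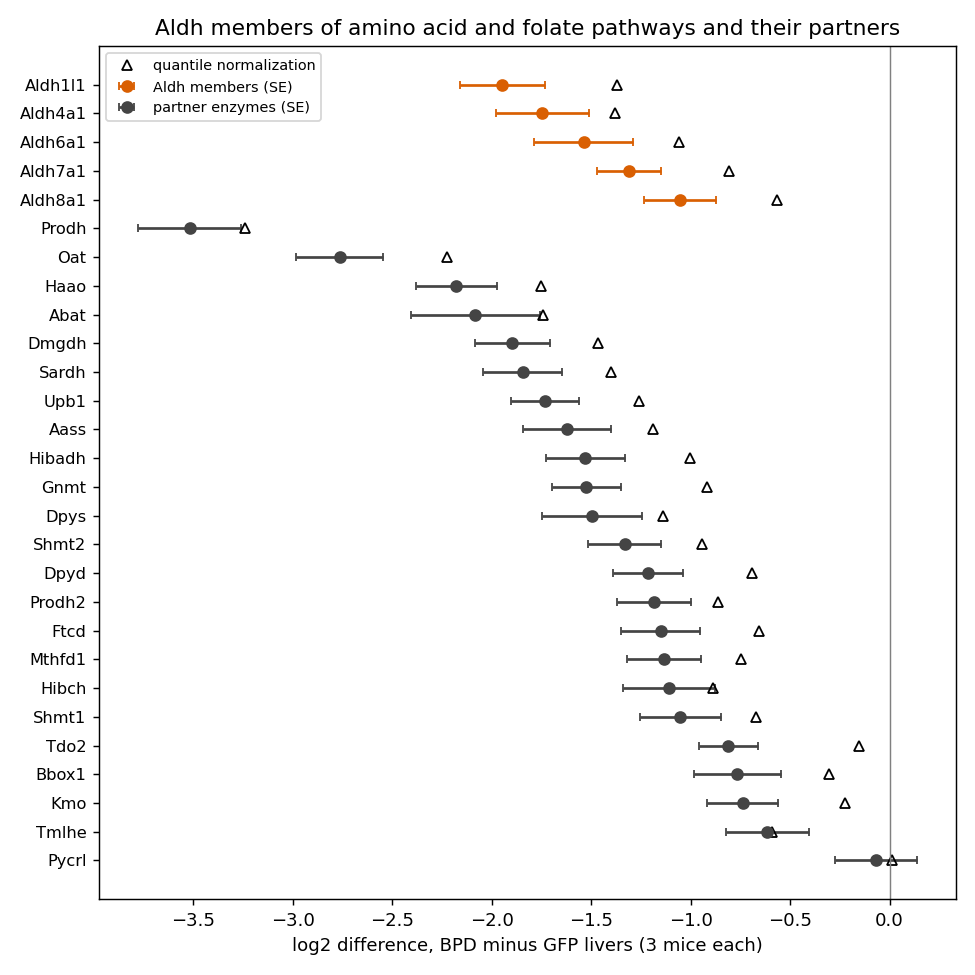
Log2 difference, BPD minus GFP livers (3 mice each), of the Aldh genes of amino acid and folate pathways (orange) and of 23 measured partner enzymes (grey), with standard errors; triangles give the value after quantile normalization. All but Pycrl lie left of 0 under both scalings, and Prodh (-3.52) and Oat (-2.76) lie farthest left.

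The retinol dehydrogenases split by gene rather than by group of enzymes. Of the 5 measured members of the branch that oxidises retinols and hydroxysteroids with NAD (Rdh5, Rdh7, Rdh9, Rdh16 and Rdh16f2), 3 fell under all 4 scalings. The share of all tested genes that did so was 9.25%. Rdh7 was the brightest retinol dehydrogenase probe set and had signals of 6757, 6590 and 8617 in BPD livers, against 12774, 12642 and 12661 in GFP livers. The GFP livers were nearly equal, and no BPD liver reached them. Rdh7 fell by 1.10 ± 0.16 (adjusted p = 0.0016; after quantile normalization -0.50, adjusted p = 0.026). Rdh16, a cis-retinol and androgen dehydrogenase, had 324, 320 and 410 in BPD livers, against 916, 868 and 1147 in GFP livers. Rdh16 fell by 1.73 ± 0.20 (adjusted p = 0.00069), a 3.32-fold difference (-1.58 after quantile normalization). Its groups lay far apart relative to their spread. Rdh16f2, a close relative of Rdh16, had 627, 446 and 288 in BPD livers, against 848, 941 and 1498 in GFP livers. Rdh16f2 fell by 1.57 ± 0.30 (adjusted p = 0.0055).

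Rdh9, which lies in the same run of genes, did not share this pattern. Its signals were 1831, 3122 and 1225 in BPD livers, against 1047, 1315 and 1556 in GFP livers. BPD liver 28 stood high and the groups overlapped, so that Rdh9 did not pass under any scaling (0.26 ± 0.28, adjusted p = 0.50). Its probe set is one of those that can match several transcripts. Within an array, the log2 ratio of Rdh9 to Rdh7 was -1.88, -1.08 and -2.81 in BPD livers, against -3.61, -3.26 and -3.02 in GFP livers, and the groups did not overlap. The same ratio to Rdh16 was 2.50, 3.28 and 1.58 in BPD livers, against 0.19, 0.60 and 0.44 in GFP livers. The signals of these probe sets thus changed unequally within the same arrays. The ratios restate that Rdh7 and Rdh16 fell while Rdh9 did not pass. Rdh5, an enzyme best known from the eye, gave -0.58 ± 0.29 (adjusted p = 0.16) and overlapped, and Rdh1 was too dim to test.

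In the RefSeq order of protein-coding genes on chromosome 10 (GRCm38.p6), Rdh1, Rdh9 and Rdh16 are adjacent and, after 1 other gene, Rdh16f2 and Rdh7 follow. The 250 bases before the starts of the 4 measured genes are shown because neighbours of 1 run differed in their calls. Capitals mark AGGTCA, read on either strand (as TGACCT on the other), the core hexamer bound by many nuclear receptors. The regions are chr10:127800903-127801152 (plus strand) for Rdh16, chr10:127866226-127866475 (plus) for Rdh16f2, chr10:127889248-127889497 (minus) for the first of 2 windows of Rdh7, and chr10:127776155-127776404 (plus) for Rdh9.
Rdh16: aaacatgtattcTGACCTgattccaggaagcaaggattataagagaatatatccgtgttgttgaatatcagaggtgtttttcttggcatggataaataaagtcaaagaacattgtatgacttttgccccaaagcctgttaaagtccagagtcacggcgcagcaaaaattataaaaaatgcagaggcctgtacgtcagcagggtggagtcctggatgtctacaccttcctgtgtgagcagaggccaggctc
Rdh16f2: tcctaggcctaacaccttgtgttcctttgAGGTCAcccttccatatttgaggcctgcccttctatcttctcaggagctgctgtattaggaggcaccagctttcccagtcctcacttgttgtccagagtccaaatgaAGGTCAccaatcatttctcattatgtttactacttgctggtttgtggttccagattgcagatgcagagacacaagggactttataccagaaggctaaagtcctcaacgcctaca
Rdh7: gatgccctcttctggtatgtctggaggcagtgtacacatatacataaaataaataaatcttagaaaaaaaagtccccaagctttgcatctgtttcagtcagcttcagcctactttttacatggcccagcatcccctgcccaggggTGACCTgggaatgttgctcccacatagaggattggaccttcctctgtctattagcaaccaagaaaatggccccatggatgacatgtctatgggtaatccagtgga
Rdh9: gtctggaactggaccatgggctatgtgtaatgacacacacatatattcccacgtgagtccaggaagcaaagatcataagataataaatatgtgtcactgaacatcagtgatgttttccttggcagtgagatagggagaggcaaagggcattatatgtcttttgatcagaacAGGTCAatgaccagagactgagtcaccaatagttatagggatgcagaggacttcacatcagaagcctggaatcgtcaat
Rdh16f2 holds 2 matches and the other 3 windows hold 1 each, while the second window of Rdh7 holds 0. The hexamer is therefore found before Rdh9, which did not pass the test, as well as before the genes that fell. It occurred in 14.0% of all 32851 windows, in 9 of the 40 windows of dehydrogenase genes, and in 6 of the 17 windows of genes that fell under all 4 scalings. Those 6 belong to Aldh1l1, Aldh6a1, Rdh7, Rdh11, Rdh16 and Rdh16f2, so the related genes of this run are among them. In addition, 6 genes had several windows. The windows are therefore not independent, and the shares were not tested. RefSeq windows were matched to 33 of the 40 genes, and no match of 1 motif overlapped a match of another.

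The second branch, most of whose measured members use NADPH and reduce retinal, had 5 measured genes. Rdh11, a retinal reductase of the endoplasmic reticulum, had signals of 410, 510 and 461 in BPD livers, against 1012, 1063 and 2679 in GFP livers. GFP liver 31 stood far above its group, but the others also exceeded all BPD livers. Rdh11 fell by 1.90 ± 0.33 (adjusted p = 0.0037). Without GFP mouse 31 the difference was -1.44, and its second probe set gave -1.76 ± 0.29. Dhrs3, which reduces retinal back to retinol and is itself raised by retinoic acid in several tissues, had 1209, 1176 and 1382 in BPD livers, against 1827, 1899 and 2185 in GFP livers. The gap between the groups was wider than either group's range. Dhrs3 fell by 0.94 ± 0.17 (adjusted p = 0.0041; -0.63 after quantile normalization).

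Rdh10, which carries the first step from retinol to retinal in the embryo, had 416, 482 and 469 in BPD livers, against 498, 546 and 594 in GFP livers. The groups were apart but close. Rdh10 fell by 0.55 ± 0.15 (adjusted p = 0.024) with array medians aligned, and missed the threshold on the deposited scale (-0.25, adjusted p = 0.22) and after quantile normalization (-0.43, adjusted p = 0.053). Rdh14, a retinal reductase, had 522, 540 and 623 in BPD livers, against 648, 661 and 791 in GFP livers. Rdh14 fell by 0.61 ± 0.17 (adjusted p = 0.027), and missed the threshold in the same scalings (-0.31, adjusted p = 0.16, and -0.45, adjusted p = 0.059). Both calls were also lost when BPD 23, BPD 28, GFP 22 or GFP 31 was left out (adjusted p up to 0.089 for Rdh10 and 0.11 for Rdh14). Rdh13, a mitochondrial retinal reductase, gave 0.07 ± 0.23 (adjusted p = 0.83), and Rdh12, a photoreceptor enzyme, was too dim to test.

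Of the remaining Dhrs genes, Dhrs7b was the 1 that fell under all 4 scalings. Dhrs7b, a reductase of ether lipid synthesis, had signals of 489, 428 and 437 in BPD livers, against 589, 628 and 644 in GFP livers. The groups did not overlap, and it fell by 0.75 ± 0.16 (adjusted p = 0.0084). Dhrs1 had 887, 800 and 742 in BPD livers, against 945, 1035 and 913 in GFP livers. It fell by 0.55 ± 0.16 (adjusted p = 0.029), but not on the deposited scale (-0.25, adjusted p = 0.21), after quantile normalization (-0.33, adjusted p = 0.10), or in 5 of the 6 fits that left out 1 mouse, the fit without BPD mouse 23 being the exception. Dhrs4, a peroxisomal carbonyl and retinal reductase, had 4198, 3368 and 5145 in BPD livers, against 4173, 3530 and 2722 in GFP livers. The groups overlapped and the sign turned with the scaling: the difference was -0.02 ± 0.23 (adjusted p = 0.97) with array medians aligned and 0.47 (adjusted p = 0.095) after quantile normalization. Dhrs7 gave -0.95 ± 0.33 (adjusted p = 0.056), and without BPD mouse 36 -1.33 (adjusted p = 0.0062). Dhrs11 gave -0.32 ± 0.16 (adjusted p = 0.16), with groups that overlapped in deposited signal and not once array medians were aligned.

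A further 19 probe sets were too dim to test, with mean signals of at most 102. They include every probe set of 8 genes: Aldh1a2, Aldh1a3, Aldh3a1, Aldh3b1, Aldh18a1, Dhrs2, Rdh1 and Rdh12. Their signals ranged from 2.15 to 186 over all livers, and in the fit without the filter the Aldh18a1 probe set given above was the only 1 of the 19 that passed.

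Other genes of retinoid handling were called at shares not far from those of all genes. Of 23 listed genes of retinoid storage and transport, 13 were measured; 2 rose and 4 fell, against 8.75% and 22.2% of all tested genes, and 2 rose and 2 fell under all 4 scalings, against 8.37% and 9.25%. The genes of smallest p are given singly. Bco2, which cleaves carotenoids, had 173, 153 and 188 in BPD livers, against 468, 438 and 431 in GFP livers, and fell by 1.61 ± 0.18 (adjusted p = 0.00060). Ces1d, a carboxylesterase that hydrolyses retinyl and other esters, fell by 1.60 ± 0.27 (adjusted p = 0.0030). Rbp4, the carrier of retinol in blood, fell by 0.77 ± 0.12 (adjusted p = 0.0020) with array medians aligned, though not after quantile normalization (-0.12, adjusted p = 0.23). Lpl, a lipase that adult liver normally makes little of, had 4683, 5399 and 2561 in BPD livers, against 649, 1276 and 401 in GFP livers, and rose by 2.20 ± 0.37 (adjusted p = 0.0031).

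Among 11 measured of 16 listed genes of retinoic acid reception and breakdown, 1 rose and 2 fell, again close to the 8.75% and 22.2% of all tested genes, and no fall held under all 4 scalings. Tgm2, a transglutaminase raised by retinoic acid in many cells, had 10099, 9106 and 6771 in BPD livers, against 2537, 2241 and 1921 in GFP livers, and rose by 1.64 ± 0.20 (adjusted p = 0.00082). The probe set of Tgm2 can match several transcripts. Cyp26a1 (-0.48 ± 0.23, adjusted p = 0.14) and Rarb (0.28 ± 0.24, adjusted p = 0.40) of the same list were called under none of the scalings. Both are named here after their values were seen. Whether retinoic acid had a part in the rise of Tgm2 was not tested. Rxrg, a partner receptor, fell by 0.99 ± 0.27 (adjusted p = 0.023), but not on the deposited scale. Rxra, the main partner receptor of liver, fell by 0.64 ± 0.20 (adjusted p = 0.042) only with array medians aligned. Nrip1, a corepressor, gave -0.61 ± 0.22 (adjusted p = 0.062).

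A list drawn around ethanol and acetate use also held antioxidant enzymes, such as Sod2, and enzymes of redox shuttles, such as Got1. Its counts are therefore not a measure of ethanol and acetate use alone. Cyp2e1 was counted both here and among the hepatocyte markers below. Of 18 listed, 15 were measured; 10 fell with array medians aligned, 5 of them under all 4 scalings, and none rose. The shares of all tested genes that fell were 22.2% and 9.25%, and those of the brightest 10% were 57.8% and 24.7%. The median gene of this list stood at the 95.02 percentile of probe sets by signal and its dimmest at 86.7. The dehydrogenase genes among the brightest 10% stood at 96.2 or higher, so this list was not matched to that 10% in brightness. The 5 that did not pass included Gpd2 (0.12 ± 0.21), named here after its value was seen. Acss2, which activates acetate in the cytosol, had 467, 657 and 931 in BPD livers, against 3445, 3335 and 4773 in GFP livers, and fell by 2.80 ± 0.26 (adjusted p = 0.00037). Cyp2e1, the ethanol-oxidising cytochrome, had 12849, 13799 and 15145 in BPD livers, against 23278, 24935 and 20616 in GFP livers. It fell by 1.02 ± 0.13 (adjusted p = 0.00098; after quantile normalization -0.36, adjusted p = 0.042). Sod2, the mitochondrial superoxide dismutase, fell by 1.32 ± 0.19 (adjusted p = 0.0017), and Got1, an aminotransferase of the malate-aspartate shuttle, fell by 1.44 ± 0.23 (adjusted p = 0.0023).

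Of 25 listed reductases and oxidases of aldehydes and ketones outside these families, 21 were measured; 13 fell and 2 rose, of which 7 and 2 under all 4 scalings. The falls compare with 57.8% and 24.7% of the brightest 10% of tested genes, and with 22.2% and 9.25% of all tested genes. The rises compare with 8.75% and 8.37% of all tested genes. The median gene of this list stood at the 93.7 percentile of probe sets by signal and its dimmest at 42.3. It was therefore not matched to the brightest 10% in brightness. Hsd11b1, which regenerates active glucocorticoid, had 2234, 1773 and 4767 in BPD livers, against 13494, 12799 and 11133 in GFP livers, and fell by 2.52 ± 0.33 (adjusted p = 0.0011). Cbr3, a carbonyl reductase, had 311, 432 and 566 in BPD livers, against 59.99, 90.3 and 54.8 in GFP livers, and rose by 2.10 ± 0.24 (adjusted p = 0.00071). Aox1, an aldehyde oxidase, fell by 1.34 ± 0.19 (adjusted p = 0.0016), and Akr7a5, an aldehyde reductase, fell by 1.06 ± 0.15 (adjusted p = 0.0017).

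The tissue was liver by its markers, and the marker lists also differed between the groups. Summed signals of 12 hepatocyte markers were 131283 to 147119 in BPD livers, against 194918 to 208946 in GFP livers; 11 of the 12 fell, 4 of them under all 4 scalings, where 57.8% and 24.7% of the brightest 10% of genes fell. Of 9 macrophage markers 5 rose, with sums of 15470 to 32027 in BPD livers, against 4168 to 14150 in GFP livers. Of 5 neutrophil markers 4 rose, with sums of 1644 to 7668 in BPD livers, against 401 to 618 in GFP livers. Of 9 listed cholangiocyte markers 8 were named on the array and only 3 were measured (Cd24a, Krt23 and Anxa5), all of which rose. Krt7, Krt19, Epcam, Sox9, Spp1 and Cftr of that list gave no tested value. Of 10 stellate cell markers 2 rose and 1 fell, with sums of 5857 to 15890 in BPD livers, against 5522 to 6581 in GFP livers. Of 9 endothelial markers 1 rose and 1 fell, and neither of the 2 measured pancreas markers passed. These counts compare with 8.75% of all tested genes that rose and 22.2% that fell. BPD liver 36 gave the low end of the BPD sums for hepatocyte, macrophage, neutrophil, cholangiocyte, stellate and endothelial markers. No marker was at 0. The part of these shifts in the dehydrogenase results was not tested, and in whole liver RNA fewer hepatocytes and less RNA per hepatocyte cannot be told apart.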

How the data were processed

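RNA of 6 livers, 1 mouse and 1 one-colour array each, was analysed from the series' value table. Per the submitters' processing notes the values come from MAS5, and the deposited intensity values are linear signals; no source here names the version or target, but the 2% trimmed mean was nearly equal on all arrays. The members and gene lists were chosen with earlier results of these data known. Groups were taken from the sample titles.

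Of 22690 probe sets, 64 controls were left out; 20380 carry 1 gene symbol, 691 several and 1555 none in the platform annotation. From these intensities log2(signal + 16.3) was computed, the constant being 10% of the median of all values, and each array was centred on its median. The 13575 probe sets (8151 genes) above the 40th percentile of mean log2 signal were fitted with limma 3.58.1 in R 4.3.3 (intensity trend, 2-sided, 4 residual degrees of freedom), with Benjamini-Hochberg adjustment over all of them. A gene stands by its tested probe set of highest mean. The code was tested on simulated data. The 17 alternatives covered scaling, filter, constant, moderation, the Gapdh 3'/5' ratio, probe sets open to cross-matching, and each mouse. Full values are given for members past the threshold and a list of main members, and for up to 4 genes of smallest p per pathway list. For cell markers, counts and sums are given. The labels give no batch. Precision is limited by 3 arrays a group. Promoter windows come from RefSeq (GRCm38.p6).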

Additional observations from a re-analysis of the deposited data

How the results depend on the processing

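No paired analysis was possible because the mouse numbers are not shared between the groups. Aldh3a2 was the only member gene higher under every alternative except the deposited scale, where 2 were higher (Aldh1b1 with it); 2 member probe sets were higher there and without the filter. The 22 lower member genes became 14 after quantile normalization and 17 to 23 when 1 mouse was left out, and the 30 lower probe sets 22 to 31. The cause of these changes was not tested. Relative to all genes, the Adh median was -0.82 (-0.46 after quantile normalization, -0.89 to -0.71 without 1 mouse). The Aldh median was -0.67 (-0.38 after quantile normalization, -0.35 without the filter, -0.67 to -0.50 without 1 mouse). The Rdh median was -0.39 (-0.58 with the stricter filter, -0.87 after leaving out probe sets open to several transcripts, with fewer genes tested, and -0.66 to -0.32 without 1 mouse). The Dhrs median was -0.43 (-0.32 without the filter, -0.51 to -0.34 without 1 mouse).

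For retinoic acid reception and breakdown, 2 lower genes became 0 on the deposited scale, 1 after quantile normalization, with tested-set centring, without the filter, with the stricter filter, with the larger constant or adjusted for the Gapdh ratio, and 0 to 3 without 1 mouse; its 1 higher gene became 0 after leaving out probe sets open to several transcripts, its own among them. For retinoid storage and transport, 4 lower genes became 2 after quantile normalization, and 2 higher genes 1 to 2 without 1 mouse. For the ethanol and acetate list, 10 lower genes became 5 after quantile normalization, and 1 gene was higher without the filter. Of the other reductases, 13 lower genes became 8 after quantile normalization and 9 to 14 without 1 mouse, and 2 higher genes became 1 with the stricter filter. Of the partners in amino acid breakdown, 19 to 21 were lower without 1 mouse.

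Signs turned for Adh1 (0.064) and Aldh1a1 (0.042) after quantile normalization. Dhrs4 gave 0.29 on the deposited scale, 0.47 after quantile normalization, 0.089 with tested-set centring, 0.060 with the larger constant, and -0.19 to 0.19 without 1 mouse (0.19 without BPD 28, 0.17 without GFP 22). Its second probe set gave 0.18, 0.31 and, without 1 mouse, -0.29 to 0.0053 (without GFP 22). Rdh13 gave -0.068 (without BPD 36) to 0.28, and Rdh9 -0.037 (without BPD 28) to 0.56. The cause was not tested. Dim probe sets limit what can be said of 8 genes.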
